A study of Drosophila melanogaster with 384 samples.

Results

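The 24 Drosophila Genetic Reference Panel (DGRP) lines with the highest RNA levels of the stress peptide genes TotA, TotC, TotM and TotX were compared with the 24 lines with the lowest levels, among 96 lines. The score of a library was the mean of log2(CPM + 1) over the 4 genes, with CPM the counts of a gene scaled to the same total in every library, and the score of a line was the average over its 4 libraries after each sex was centred. The high and the low set each held 96 of the 384 libraries, and 48 lines lay between them. The DGRP lines are inbred, so that each line stands for 1 genotype of a natural population. All flies, those of both sets included, were reared from egg to adult on medium with 10% (v/v) ethanol. RNA was extracted from whole mated flies 3 to 5 days of age, in pools of 25 females or 30 males, with 2 replicates per line and sex. Flies from medium without ethanol are not used here. The labels name no treatment or allele aimed at the Turandot genes, and they give neither the Wolbachia status nor the inversion karyotype of a line.

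The Turandot genes encode small secreted peptides that are made mainly by the fat body, the fly's counterpart of liver and adipose tissue, and released into the hemolymph. They are known to be induced by septic injury, heat, dehydration and other stress, with JAK/STAT signalling and stress-activated MAP kinases acting upstream. Diedel, another secreted peptide of flies, also responds to JAK/STAT signalling and is known to restrain the Imd immune pathway. In the reference annotation (BDGP6), TotA, TotC, TotB and TotZ follow each other on chromosome arm 3R on the same strand. TotX lies elsewhere on 3R, TotM lies on 2L, and TotF and TotE are neighbours on 2L. Because RNA of whole flies was sequenced, more cells that make a transcript and more RNA per cell cannot be told apart.

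Libraries held from 5356737 to 17401404 counts, with medians of 10464967 in females and 10214028 in males, and overlapped between the sets in each sex. No pair of libraries held identical counts. Several libraries held RNA of the other sex. The summed level of 4 yolk genes had a median of 14.8 CPM in male libraries and 23486 CPM in female libraries, but reached 3959 CPM in male replicate 1 of DGRP_176 and 2330 CPM in male replicate 2 of DGRP_40, both low lines. The summed level of 9 accessory gland genes had a median of 0.835 CPM in female libraries and reached 239 CPM in replicate 1 of DGRP_374, a low line, and 190 CPM in replicate 1 of DGRP_555, a high line. The flow cells, given in the labels and called A to G here, were not balanced between the sets. Both female libraries were run on flow cells A and B in 6 of 24 high lines and in 19 of 24 low lines. Both male libraries were run on A and B in 16 high and 23 low lines. Over all lines the mean score was -0.41 ± 1.25 (SD, n = 45) where females were on A and B and 0.38 ± 1.06 (n = 49) where they were on other flow cells, with the 2 lines whose female libraries were divided left out, which differ by -0.79 (permutation test over lines, two-sided, p = 0.00126). The set of flow cells and the Turandot level therefore moved together. Apart from the 2 divided lines, all lines up to DGRP_382 had females on A and B, and none from DGRP_383 on. In females flow cell therefore cannot be told apart from anything else that went with line number. The male score differed between these lines too, with means of -0.48 and 0.44. Many males of the higher-numbered lines were themselves run on A and B, so in males flow cell followed line number only in part. Results are given with and without the set of flow cells (females on A and B, or not) as a term in the fit. Unless male libraries are named, lines on A and B are those with both female libraries there, for males too.

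The score agreed between the libraries of most lines, but not of all. Line scores were between 0.84 and 4.61 in the high set, with a median of 1.35, and between -2.15 and -0.89 in the low set, with a median of -1.39. The plot of the score by library shows that the high set is stretched by a few lines. DGRP_306 had the highest score, with 4.17 and 4.48 in females and 4.32 and 5.46 in males. DGRP_386 followed at 3.10 and DGRP_208 at 2.89. The male replicates of DGRP_208 were 5.06 and 0.47, the largest difference between replicates of any line at 4.58, while the median difference was 0.66 in females and 0.53 in males. DGRP_313 had the lowest score, with 4 libraries between -2.37 and -1.98. At the edges of the sets, DGRP_555 at 0.84 was the last high line and DGRP_324 at 0.83 was just outside, while DGRP_318 at -0.89 was the first low line and DGRP_897 at -0.86 was just outside.

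**Figure D1:**
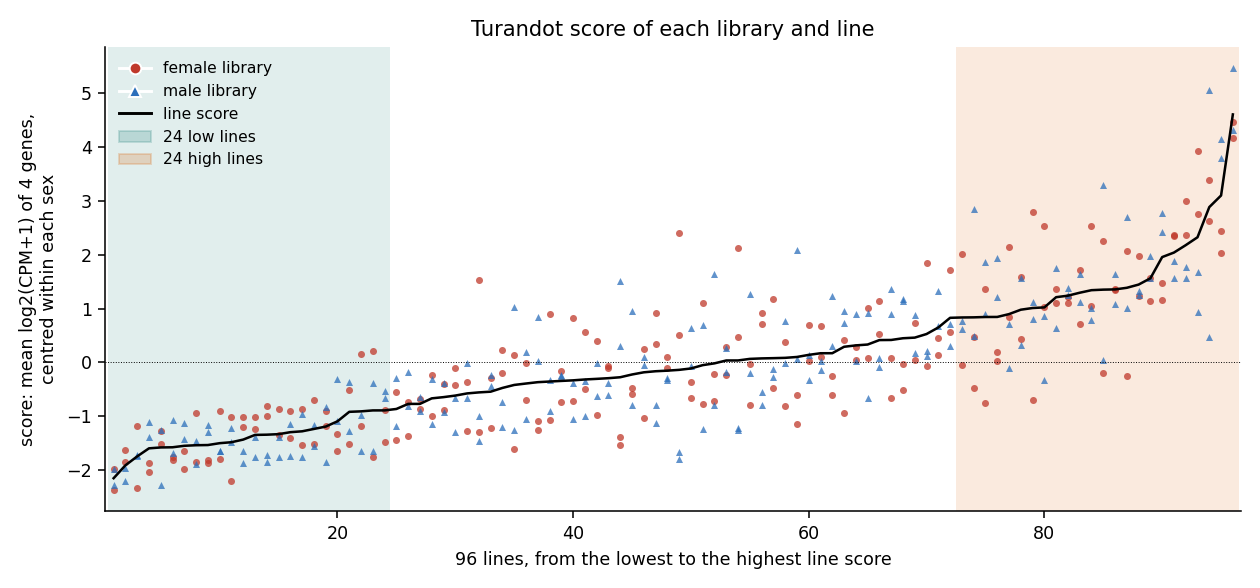
Turandot score (mean log2(CPM + 1) of TotA, TotC, TotM and TotX, centred within each sex) of 384 libraries by line, with lines in order of the line score (black). The 24 low lines (green) and 24 high lines (orange) are shaded, and single libraries of a line can lie far from its score, as in DGRP_208.

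All 4 libraries were above 0 in 16 of 24 high lines and below 0 in 22 of 24 low lines. In 15 high lines all 4 libraries were above the highest library of any low line. Of 96 high libraries 8 were below 0, and of 96 low libraries 2 were above 0. Over the 96 lines, replicates correlated with r = 0.73 in females (rho = 0.71) and r = 0.74 in males (rho = 0.78), and the mean of the females correlated with that of the males with r = 0.74 (rho = 0.70). Each had a permutation p of 1e-05, the smallest that 100000 permutations can give, and a BH-adjusted p of 1e-05 over the 3 relations. Without the 2 lines farthest from the median r was 0.68, 0.76 and 0.71. Within lines with females on flow cells A and B (n = 45) r was 0.80, 0.71 and 0.78, and within the others (n = 51) it was 0.62, 0.72 and 0.65. When lines were ranked on one sex alone, 17 were among the 24 highest in both sexes, 18 among the 24 lowest in both, and 2 were high in one sex and low in the other.

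The levels of the 4 genes in the 2 sets are a description, because these values chose the lines. TotA, first described as a humoral stress peptide, had the largest spread. In females its level per line was between 18.2 and 798 CPM in high lines (median 158) and between 1.91 and 36.2 CPM in low lines (median 7.24), a ratio of medians of 21.8. In males it was between 34.2 and 1789 CPM in high lines (median 125) and between 3.46 and 18.5 CPM in low lines (median 5.63), a ratio of 22.2. TotA separated the sets completely in males, where all 24 high lines were above the highest low line, while in females 20 of 24 were. TotC, the neighbour of TotA, was between 9.28 and 484 CPM in high females (median 83.9) and between 2.29 and 15.6 CPM in low females (median 4.25). In males TotC was between 3.23 and 817 CPM in high lines (median 46.9) and between 0.881 and 5.00 CPM in low lines (median 2.26). In both sexes 23 of 24 high lines were above the highest low line for TotC.

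TotM and TotX had smaller ratios of medians between the sets. TotM was between 3.87 and 195 CPM in high females (median 28.9) and between 0.698 and 11.3 CPM in low females (median 5.55), with 21 of 24 high lines above the highest low line. In males the medians of TotM were 12.1 and 2.56 CPM, and 19 high lines were above the highest low line. TotX had medians of 8.01 and 1.23 CPM in high and low females and 16.0 and 2.90 CPM in high and low males, with 19 and 16 high lines above the highest low line. The ratio of medians was 19.8 in females and 20.7 in males for TotC, 5.21 and 4.72 for TotM, and 6.49 and 5.50 for TotX. Per kilobase of exon, so that genes can be compared, the median level in high females fell in the order TotA at 272, TotC at 158, TotM at 52.4 and TotX at 13.3 CPM per kb. In high males the order was TotA at 216, TotC at 88.4, TotX at 26.5 and TotM at 21.9 CPM per kb. The ranges of neighbours in these orders overlapped.

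**Figure D2:**
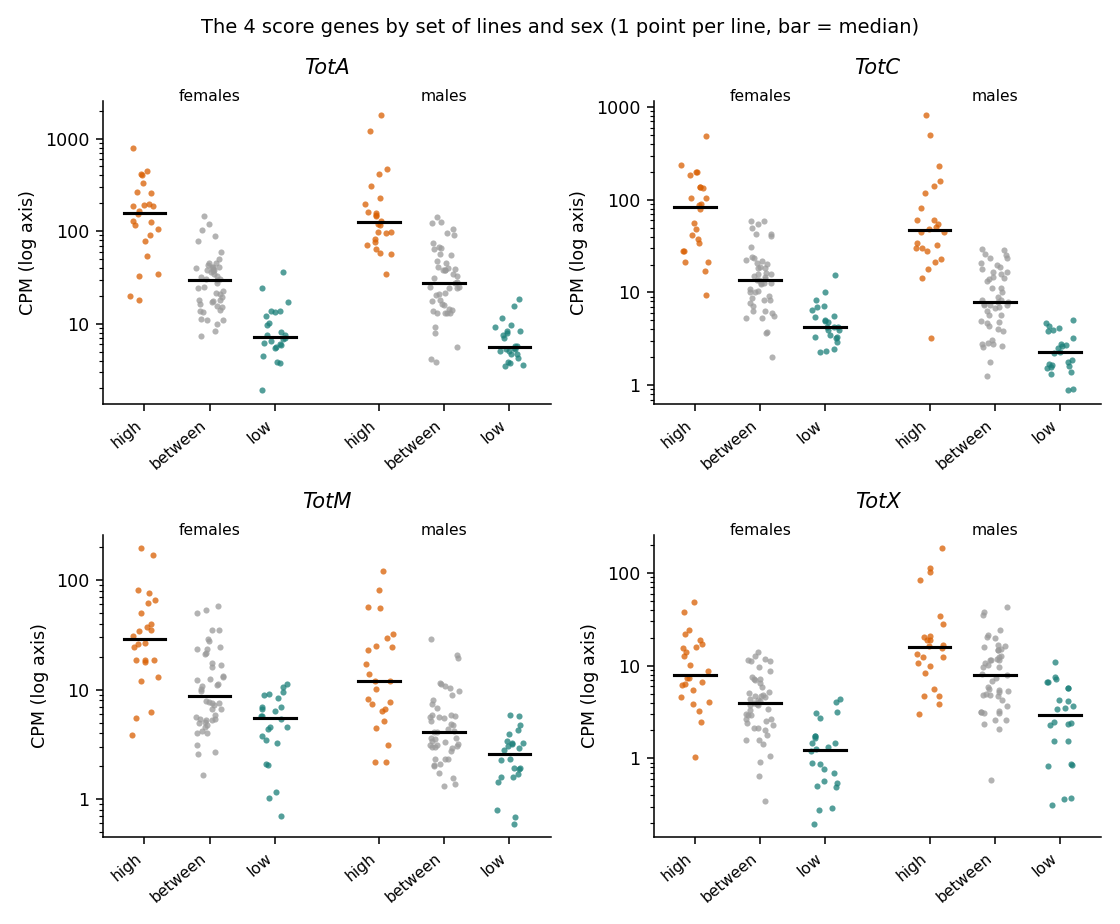
Level of the 4 score genes (CPM of the summed replicates, log axis) in high, between and low lines, in females and males, 1 point per line and a bar at the median. All 24 high lines were above all low lines for TotA in males and 20 were in females, while for TotC 23 were in each sex, for TotM 21 in females and 19 in males, and for TotX 19 and 16.

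The 4 genes did not rank the lines alike. Over 96 lines, log2(CPM + 1) of TotA and TotC correlated with r = 0.90 in both sexes (rho = 0.88 in females and 0.89 in males), and r stayed at 0.89 and 0.88 without the 2 lines farthest from the median of TotA. The other pairs had r between 0.47 (TotM with TotX, males) and 0.67 (TotC with TotM, females). Each of the 12 relations had a permutation p of 1e-05, the smallest possible, and a BH-adjusted p of 1e-05. Ranked by TotM alone, 16 of the 24 high lines were again among the 24 highest and 1 was among the 24 lowest, while 13 of the 24 low lines were again among the lowest. The rule centred each sex, so that the level of a gene in females and males was free to differ. TotM was higher in females in 78 of 96 lines (mean log2 difference of males from females -0.93, SD 1.13) and TotC in 65 (-0.61, SD 1.34). TotX was higher in males in 82 of 96 lines (0.83, SD 0.92). These had BH-adjusted p of 2e-05, 5e-05 and 2e-05 (sign-flip permutation test over lines, 4 genes), while TotA was higher in males in 49 lines and in females in 47 (mean difference -0.02, SD 1.17, p = 0.851).

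The Turandot genes were then tested in libraries that had not chosen the lines. In lines chosen on males alone, all 4 genes were higher in the females of high lines. TotA had medians of 120 and 7.88 CPM in the females of high and low lines and a log2 fold change of 3.41 (SE 0.44), and that of TotC was 3.17 (SE 0.47), with edgeR quasi-likelihood BH-adjusted p of 8.3e-06 and 0.00014. TotM and TotX rose by 1.97 (SE 0.46) and 2.25 (SE 0.43) on the log2 scale, with edgeR adjusted p of 0.022 and 0.0052. In lines chosen on females alone, the males of high lines had higher levels of TotA by 4.59 (SE 0.51), of TotC by 4.58 (SE 0.56), of TotM by 2.83 (SE 0.41) and of TotX by 2.47 (SE 0.47), with edgeR adjusted p of 1.0e-07, 1.2e-06, 5.8e-05 and 0.0058. With the set of flow cells in the fit 7 of these 8 differences passed again, and TotM in females did not (log2 fold change 1.95, edgeR adjusted p = 0.121). The levels overlapped in every gene, and in TotA 15 of 24 high lines in females and 20 of 24 in males were above the highest low line. Both sexes of a line share their genotype and rearing, so genotype and rearing cannot be told apart in these tests.

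The 4 Turandot genes outside the score that matched a gene model were at or near 0. Of 5 listed, Victoria was not matched by name and has no values here. None reached the mean of 5 counts per library that a test required. TotB had at least 1 count in 19 of 24 high lines and 8 of 24 low lines in females and in 21 and 14 in males. Its highest level was 1.16 CPM in high females and 1.76 CPM in high males, against 0.380 and 0.248 CPM in low lines. TotE reached 0.469 CPM and TotZ 0.349 CPM in any line of the sets, with counts in 6 of 24 high and 6 of 24 low lines (TotE) and in 9 and 6 (TotZ) in females. TotF had counts in 2 high and 8 low lines in females and was highest in a low line, at 0.706 CPM.

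Few other genes differed between the sets, measured in the same libraries that chose the lines. In females 96 of 14747 other transcripts tested were called at a BH-adjusted p below 0.05 (edgeR), or 0.651%, with 52 higher (0.353%) and 44 lower (0.298%) in high lines. In males 118 of 19010 were called, or 0.621%, with 67 higher (0.352%) and 51 lower (0.268%). At an unadjusted p below 0.05 there were 1034 in females and 1856 in males. Of the calls 58 in females and 69 in males were unannotated transcribed regions (NTRs), which have no gene name, and 38 and 49 were annotated genes. Most calls rested on few lines, and such transcripts could pass the minimum of counts through 1 set alone. In 81 of the 96 female calls (84.4%) and 83 of the 118 male calls (70.3%), the 2 highest of the 48 lines held over 50% of the summed level, against 1.33% and 0.926% of all transcripts tested. An even spread would give them 4.17%. The median share was 82.6% in female calls and 74.4% in male calls, and 7.12% and 6.64% over all tested. These were different lines from gene to gene, since 40 of the 48 lines led at least 1 female call and no line led more than 4, and in males 42 lines led a call and DGRP_306 led 8. None of these transcripts had levels that did not overlap between the sets in either sex (0% of those tested).

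The number of calls depended on the test and on whether the set of flow cells, which followed line number, was in the fit. Limma-voom, which works on the log scale, called 4 transcripts in females (0.0271%) and 5 in males (0.0263%), all of them also called by edgeR. DESeq2 called 167 (1.13%) and 219 (1.15%). With the set of flow cells in the fit edgeR called 21 in females (0.142%) and 26 in males (0.137%), of which 14 and 19 had been called in the same direction without it. Within the lines with females on A and B, where 6 high lines stood against 19 low lines, 23 transcripts were called in females (0.157%), all higher in high lines. Within the other lines, with 18 high against 5 low, 17 were called in females (0.115%) and 25 in males (0.132%), all lower in high lines. In males of the lines on A and B 17 were called (0.0892%), 16 higher and 1 lower. The set of flow cells is defined by the female libraries, for males too. With the flow cells of the male libraries in its place, a term added after seeing the data, edgeR called 69 in males (0.363%), 57 higher and 12 lower, of which 58 had been called in the same direction without it. Within the 16 high and 23 low lines with both male libraries on A and B, 72 were called in males (0.379%), 65 higher and 7 lower. With 1 exception in males, the calls within each set of flow cells of the female libraries were higher in whichever set had fewer lines there. When the lines were chosen on the other sex 122 were called in females (0.821%) and 79 in males (0.417%), and 61 and 68 of the calls were called again in the same direction.

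**Figure D3:**
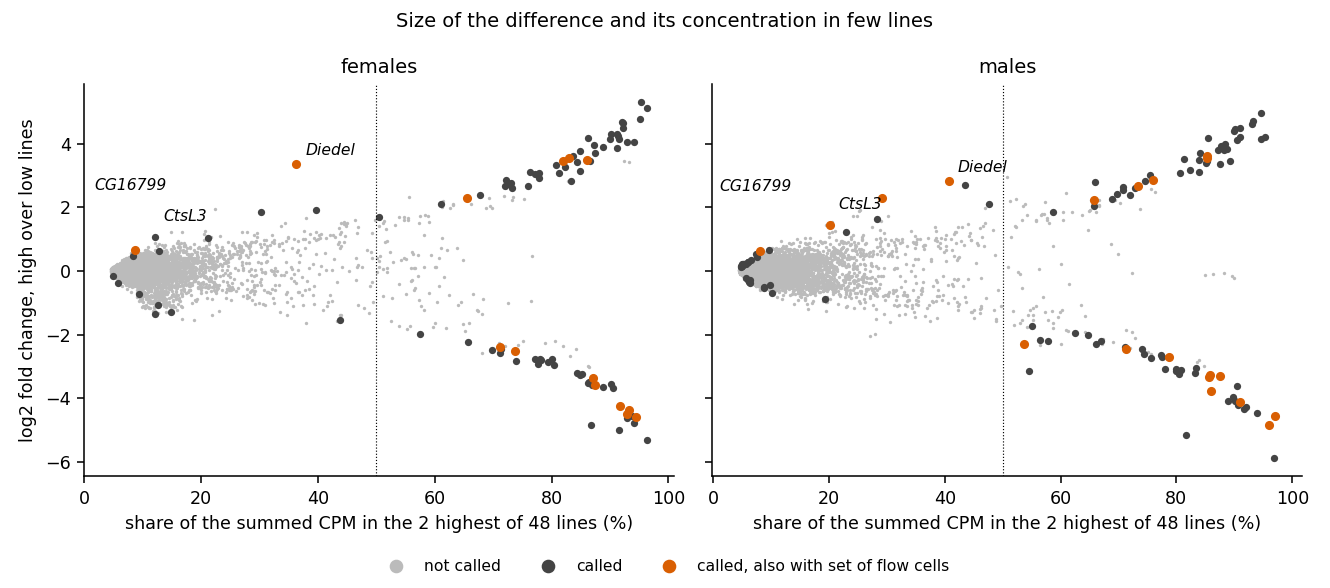
Log2 fold change of high over low lines (edgeR) against the share of the summed CPM held by the 2 highest of the 48 lines, for each transcript tested in females and males without the 4 score genes. Called transcripts (dark) lie mostly beyond 50% (dotted), and those also called with the set of flow cells in the fit (orange) include Diedel and CG16799 in both sexes and CtsL3 in males.

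Both sexes shared 44 calls, all in the same direction, with 25 higher and 19 lower in high lines. These were 45.8% of the female and 37.3% of the male calls. Of the 44, 7 were called in both sexes with the set of flow cells in the fit and 1 was called in both by limma-voom. The 2 sexes come from the same lines, so that a transcript that is high in 1 or 2 genotypes can be called in both. In 41 of the 44 the 2 highest lines held over 50% of the level in both sexes. The others were Diedel, CG16799 and CtsL3, all higher in high lines. The minimum of 5 counts was a mean over both sets, so a transcript high in few lines could enter the test through 1 set alone. Calls with most of their level in 2 lines, their directions and their sharing are therefore a description. Of the 44, 8 were annotated, and the remaining 5 (dsf, CG33253, Desat2, CG1113 and the antisense RNA asRNA:CR45146) had 55.0% to 93.7% of their level in 2 lines. Desat2, a fatty acid desaturase that shapes female cuticular hydrocarbons, is an example of these. Its median was 0.304 CPM in high and 0.232 CPM in low females, and its highest level was 5.20 CPM in high and 275 CPM in low lines, so that a log2 fold change of -4.85 (SE 0.95, edgeR adjusted p = 0.0060) came with medians that differed little. Limma-voom gave Desat2 in females an adjusted p of 0.999. In males the mean of Desat2 was 0.153 CPM in high and 2.73 CPM in low lines. It passed the minimum of counts there only through the low set.

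Diedel had the highest correlation with the score in females and a level that overlapped between the sets in both sexes. In females its level was between 0.113 and 16.8 CPM in high lines (median 1.49) and between 0 and 0.771 CPM in low lines (median 0.173), and 17 of 24 high lines were above the highest low line. The median in the 48 lines between was 0.521 CPM. In males it was between 0.104 and 7.17 CPM in high lines (median 0.581) and between 0 and 0.913 CPM in low lines (median 0.128), and 6 of 24 high lines were above the highest low line. In both sexes 2 low lines had no count, and the median over the 2 libraries of a low line was 3 counts in females and 2 in males. The log2 fold change was 3.35 (SE 0.44) in females and 2.82 (SE 0.45) in males, with edgeR adjusted p of 2.7e-06 and 0.00035. Diedel passed the minimum of 5 counts per library (mean 15.6 in females and 7.48 in males over both sets) only through its level in the high lines, so that its entry into the test depended on the difference itself. With no filter the log2 fold change was 3.35 in females and 2.81 in males (edgeR adjusted p of 3.2e-06 and 0.00054). It also passed with the set of flow cells in the fit (3.49 and 3.09, edgeR adjusted p of 1.8e-05 and 0.00063) and within the lines on A and B (3.49 and 3.02, edgeR adjusted p of 0.00018 and 0.036). With the flow cells of the male libraries in the fit Diedel was higher in males by 3.03 (SE 0.46, edgeR adjusted p = 0.00012). In the other lines it was 3.48 and 3.22 and did not pass, with 5 low lines (edgeR adjusted p of 0.736 and 0.535). The 2 highest lines held 36.3% of the level in females and 40.8% in males. The highest female level was that of DGRP_890 and the highest male level that of DGRP_208, and neither was the line with the highest score. Limma-voom gave adjusted p of 0.0084 in females and 0.076 in males. In lines chosen on the other sex, Diedel was higher by 1.997 (SE 0.52) in females and 2.50 (SE 0.46) in males, with edgeR adjusted p of 0.047 and 0.0056, and with the set of flow cells also in the fit the female difference did not pass (1.89, edgeR adjusted p = 0.630). With lines chosen on replicate 1 and tested on replicate 2, Diedel in females did not pass (1.89, SE 0.49, edgeR adjusted p = 0.061). With the replicates exchanged it passed in females (3.80, SE 0.58, edgeR adjusted p = 0.00017) and in males (3.20, SE 0.55, edgeR adjusted p = 0.0018), and in male replicate 2 its counts were too low for a test.

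CG16799, a gene predicted to encode a lysozyme-type enzyme, had a smaller difference that was spread over more lines. In females its level was between 12.5 and 57.1 CPM in high lines (median 32.3) and between 15.4 and 30.4 CPM in low lines (median 20.7). In males it was between 13.8 and 72.4 CPM in high lines (median 39.4) and between 20.8 and 34.0 CPM in low lines (median 27.3). The lines between had medians of 24.8 and 32.8 CPM. In males 21 of 24 high lines were above the highest low line, and in females 13 were. DGRP_306, the line with the highest score, also had the highest CG16799 level of the high set in both sexes, and DGRP_882, a high line, had the lowest of all 96 lines in both. The log2 fold change was 0.65 (SE 0.11) in females and 0.62 (SE 0.10) in males (edgeR adjusted p of 0.0022 and 0.00022). CG16799 was the only transcript called in both sexes by limma-voom, edgeR and edgeR with the set of flow cells, with limma-voom adjusted p of 0.033 and 0.0047 and edgeR adjusted p with the set of flow cells of 0.011 and 0.0012. The 2 highest lines held 8.68% and 8.13% of the level. In lines chosen on the other sex it was higher by 0.40 (SE 0.13) in females, which did not pass (edgeR adjusted p = 0.181), and by 0.46 (SE 0.10) in males (edgeR adjusted p = 0.015, and 0.088 with the set of flow cells also in the fit). When one replicate chose the lines and the other was tested, CG16799 passed in each of the 4 tests, with log2 fold changes of 0.56 and 0.59 in females and 0.54 and 0.48 in males (edgeR adjusted p of 0.019, 0.026, 0.014 and 0.017). With the flow cells of the male libraries in the fit it was 0.71 in males (edgeR adjusted p = 5.0e-06). Within the lines on A and B the log2 fold change was 0.69 in females and 0.76 in males (edgeR adjusted p of 0.040 and 0.0026), and in the other lines it was 0.62 and 0.52 and did not pass (edgeR adjusted p of 1.0 and 0.998).

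CtsL3, a predicted cathepsin L-type cysteine protease, was higher in high lines in both sexes. In females its level was between 0.333 and 27.9 CPM in high lines (median 10.6) and between 2.76 and 9.23 CPM in low lines (median 5.997), and in males between 0.532 and 57.4 CPM (median 9.33) and between 2.12 and 8.99 CPM (median 4.14). In females 14 and in males 13 of 24 high lines were above the highest low line. DGRP_882 again had the lowest level of all 96 lines in both sexes, well below the next line at 2.62 CPM in females and 1.94 CPM in males. The log2 fold change was 1.06 (SE 0.22) in females and 1.44 (SE 0.25) in males (edgeR adjusted p of 0.0069 and 0.0016). With the set of flow cells in the fit CtsL3 passed in males (1.51, edgeR adjusted p = 0.0023) and not in females (edgeR adjusted p = 0.251). Limma-voom called it in neither sex (adjusted p of 0.396 and 0.181). In lines chosen on males it was higher in females by 0.70 (SE 0.23), which did not pass (edgeR adjusted p = 0.151). In lines chosen on females it was higher in males by 1.16 (SE 0.28, edgeR adjusted p = 0.032, and 0.135 with the set of flow cells also in the fit). When replicate 1 chose the lines it passed in replicate 2 of both sexes (0.99 and 1.39, edgeR adjusted p of 0.025 and 0.0088), and in lines chosen on replicate 2 it passed in replicate 1 of neither (0.86 and 1.06, edgeR adjusted p of 0.204 and 0.104). With the flow cells of the male libraries in the fit it was 1.61 in males (edgeR adjusted p = 0.00020). Within the lines on A and B CtsL3 passed in males (1.895, edgeR adjusted p = 0.020) and not in females (0.71, edgeR adjusted p = 0.961), and it passed in neither sex in the other lines.

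**Figure D4:**
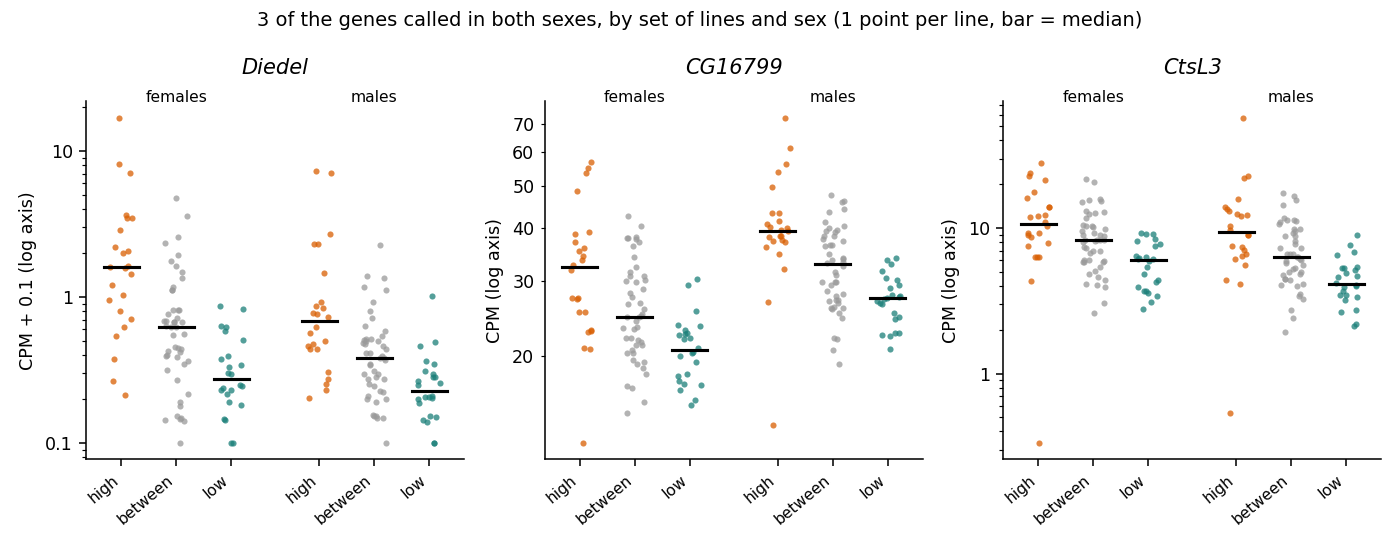
Level of Diedel (CPM + 0.1), CG16799 and CtsL3 (CPM) on log axes in high, between and low lines, in females and males, 1 point per line and a bar at the median. Medians fall from high to between to low lines for each gene and sex, and the lowest high-line point of CG16799 and of CtsL3 is DGRP_882.

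Whether a difference between the sets depended on sex was tested directly. No transcript of 18120 had a set by sex term below an edgeR adjusted p of 0.05 (0%) with all libraries, so no call in 1 sex alone is shown to be particular to it. At an unadjusted p below 0.05 there were 1123, and limma-voom called 0 (1174 at an unadjusted p below 0.05). With replicate 1 left out edgeR called 5, and with replicate 2 left out 0.

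Genes most like the score were found over all 96 lines as a description, since they were picked for it among 11147 annotated genes in females and 13653 in males. In females they were Diedel (r = 0.58, rho = 0.55), CG16799 (r = 0.47), CtsL3 (r = 0.44), pug (r = 0.39), a folate enzyme, Mtp (r = 0.37), which loads lipid onto lipoproteins, Ldh (r = 0.36), lactate dehydrogenase, CG6178 and the thioester protein Tep2 (both r = 0.35). In males they were CtsL3 (r = 0.57, rho = 0.52), CG16799 (r = 0.52), Diedel (r = 0.52), the lipase Lip4 (r = 0.42), Oscillin (r = 0.41), the ceramidase CDase and the cystatin Cys (both r = 0.38) and Lip3 (r = 0.38, rho = 0.20). Negative r was found too, as for snoRNA:Psi28S-3316b in females (r = -0.37) and Ac13E in males (r = -0.48). Diedel, CG16799 and CtsL3 led the positive r in both sexes. Their r within the lines on A and B was 0.73, 0.54 and 0.48 in females and 0.58, 0.68 and 0.64 in males, and within the others 0.48, 0.34 and 0.39, and 0.41, 0.30 and 0.40. For pug, Mtp, Ldh, CG6178 and Tep2 in females r was 0.40, 0.26, 0.42, 0.26 and 0.41 within the lines on A and B. Within the others it was 0.36, 0.33, 0.36, 0.30 and 0.27. For Lip4, Oscillin, CDase, Cys and Lip3 in males, the lines were again split by the flow cells of their females. Where females were on A and B, r was 0.54, 0.55, 0.58, 0.34 and 0.52. Within the others, many of which had males on A and B, it was 0.13, 0.16, 0.11, 0.24 and 0.23.

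Of the more abundant genes called in males alone, several had small differences. They included CG9391 (log2 fold change 0.16, SE 0.03), Oscillin (0.22, SE 0.05), the mitochondrial ribosomal protein gene mRpS7 (0.18, SE 0.04), CG2608 (0.16, SE 0.04) and CG31715 (0.22, SE 0.05), all higher in high lines, and the adenylyl cyclase gene Ac13E, which was lower (-0.36, SE 0.07). No high line reached the median of Ac13E in low males, with a highest high line at 61.4 CPM and a low median of 63.9 CPM, while the low lines began at 44.2 CPM. Their edgeR adjusted p were between 0.0038 and 0.021, and none of the 6 passed with the set of flow cells in the fit (0.071 to 0.741). Limma-voom called Ac13E, mRpS7 and CG9391 (adjusted p of 0.0084, 0.048 and 0.043) and not Oscillin, CG2608 or CG31715 (0.070 to 0.071). With the flow cells of the male libraries themselves in the fit, CG9391 (0.19, edgeR adjusted p = 0.0010), Oscillin (0.23, 0.019), mRpS7 (0.19, 0.019), CG2608 (0.17, 0.027) and Ac13E (-0.38, 0.0053) passed and CG31715 did not (0.20, 0.088). Within the lines with both male libraries on A and B, CG9391 (0.21, edgeR adjusted p = 0.0023), Oscillin (0.26, 0.0089) and Ac13E (-0.40, 0.0089) passed and the other three did not. SPH93, a serine protease homologue, had medians of 2.92 and 0.716 CPM in high and low males and reached 110 CPM in a high line (log2 fold change 2.71, SE 0.63, edgeR adjusted p = 0.021, and 0.778 with the set of flow cells), with 43.5% of its level in 2 lines. The lower male calls CG15414 (-2.44, SE 0.61), Cyp4c3 (-1.95, SE 0.50), Yp2 (-3.04, SE 0.76) and Yp3 (-2.004, SE 0.51) were larger and rested on few lines, with 74.0%, 62.5%, 83.4% and 64.8% of the level in 2 of them. With the set of flow cells in the fit none of the 4 passed (edgeR adjusted p of 0.9997 for each).

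Of the 11 annotated female calls with a mean of at least 50 counts, 5 were higher and 6 lower in high lines, and CG16799 was the only one of them that also passed with the set of flow cells in the fit. The ubiquitin and ribosomal fusion gene RpL40 had medians of 214 and 296 CPM in high and low females (log2 fold change -0.36, SE 0.08, edgeR adjusted p = 0.012), and RpS25 of 1379 and 1520 CPM (-0.16, SE 0.04, edgeR adjusted p = 0.019). Lower in high females were also 3 small nucleolar RNAs of the kind that guides pseudouridylation of ribosomal RNA, snoRNA:Psi28S-3316b at 3.05 against 9.77 CPM, snoRNA:Psi28S-2149 at 2.72 against 4.67 CPM and snoRNA:Psi28S-1175b at 113 against 267 CPM in the medians. Small nucleolar RNAs can have near-identical copies and lie within host genes, so their counts are uncertain. Over all 102 tested small nucleolar RNAs of this kind, a group chosen after its values were seen, these 3 were called in females, and the median log2 fold change was -0.85, and -0.05 with 0 called with the set of flow cells in the fit. In males 0 of 91 were called (edgeR), with a median of 0.06. With the set of flow cells in the fit all 5 had an edgeR adjusted p of 0.9996, and the log2 fold change of RpL40 went to -0.11. Limma-voom, without that term, called RpL40 and snoRNA:Psi28S-3316b in females (adjusted p of 0.033 and 0.038). It did not call RpS25, snoRNA:Psi28S-2149 or snoRNA:Psi28S-1175b (0.096 to 0.121). Idgf3, a chitinase-like growth factor, was higher in high females at 52.5 against 41.9 CPM (0.63, SE 0.16, edgeR adjusted p = 0.048), and 0.826 with the set of flow cells. FBgn0033674, which had passed without it (1.91, SE 0.44, edgeR adjusted p = 0.017), had an edgeR adjusted p of 0.9996 in the same fit.

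The pathways that are known to act on Turandot genes were examined through lists of genes. Of the JAK/STAT pathway 0 of 9 tested members were called by edgeR in either sex, with 2 higher at an unadjusted p below 0.05 in females (Stat92E and Socs36E) and 2 higher and 2 lower in males (upd3, Socs36E, hop and ken). Limma-voom and DESeq2 also called 0 in either sex. Over all transcripts tested, 1034 of 14747 in females and 1856 of 19010 in males were at an unadjusted p below 0.05. These are the background for the counts at that cut in every list. The transcription factor gene Stat92E had medians of 454 and 424 CPM in high and low females (log2 fold change 0.10, SE 0.03, edgeR adjusted p = 0.112). Socs36E, a feedback inhibitor that is itself a target, had a log2 fold change of 0.20 (SE 0.10) in females and 0.22 (SE 0.07) in males, and the cytokine gene upd3 one of 0.33 (SE 0.26) and 0.76 (SE 0.23), with edgeR adjusted p from 0.139 to 0.992. With 0.651% and 0.621% of all transcripts called, a count of 0 in a list of this size is near the background and no result about its members. The median log2 fold change of the list was 0.03 in females and 0.00 in males, close to 0.01 and 0.00 over all transcripts tested. Of 13 stress MAP kinase genes 0 were called in either sex (medians 0.03 and 0.04), with 1 in females and 3 in males higher at an unadjusted p below 0.05, among them bsk, the JNK gene (0.10, SE 0.03, in males). Limma-voom called 0 of these, and DESeq2 called bsk in males.

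Of 7 thioester proteins and JAK/STAT-induced peptides, Diedel was called in females, and Diedel and Tep1 in males. Of all transcripts tested 0.651% were called in females and 0.621% in males. Tep1 had medians of 0.612 and 0.520 CPM in high and low males and reached 364 CPM in a high line (log2 fold change 3.36, SE 0.86, edgeR adjusted p = 0.046), with 87.6% of its level in 2 lines. The Tep1 call was lost with the set of flow cells in the fit (2.12, edgeR adjusted p = 0.9997), with the flow cells of the male libraries (3.24, edgeR adjusted p = 0.069) and in limma-voom (adjusted p = 0.914). Tep2 had a log2 fold change of 0.40 (SE 0.11) in females and 0.36 (SE 0.12) in males (edgeR adjusted p of 0.055 and 0.179). The median of the list was 0.16 in females and 0.30 in males, and 0.17 and 0.06 with the set of flow cells in the fit. Among immune effectors, 0 of 14 antimicrobial peptide genes were called by edgeR in either sex, with 1 higher and 1 lower in females and 5 higher and 1 lower in males at an unadjusted p below 0.05. Their median log2 fold change was -0.03 in females and 0.84 in males, and 0.23 and 0.26 with the set of flow cells. Limma-voom called 0 of them, and DESeq2 called CecA2 in males. CecA2, a cecropin, had medians of 3.23 and 1.18 CPM in high and low males (1.53, SE 0.44, edgeR adjusted p = 0.096). Of 12 Bomanins and other Toll-induced peptides BomS6 was called in males (medians of 104 and 60.6 CPM, log2 fold change 0.67, SE 0.17, edgeR adjusted p = 0.046, and 0.347 with the set of flow cells), and 6 were higher at an unadjusted p below 0.05. In females edgeR, limma-voom and DESeq2 called 0 of the 12, and 0 were at an unadjusted p below 0.05. The median log2 fold change of the 12 was 0.17 in females and 0.45 in males. With the set of flow cells in the fit it was 0.30 and 0.48. At the shares called over all transcripts, 0 calls among these 12 in females or among the 14 antimicrobial peptide genes is near the background. Those counts of 0 are no result about the members.

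Lists of other stress responses had no call. EdgeR called 0 of 33 Imd and Toll recognition and signalling genes, 0 of 11 antiviral genes, 0 of 7 melanization genes, 0 of 15 (females) and 16 (males) heat shock genes, 0 of 30 oxidative stress and detoxification genes, 0 of 15 starvation and insulin genes and 0 of 11 genes of ethanol and acetate metabolism in either sex. At an unadjusted p below 0.05 these lists held in females 2, 0, 2, 1, 4, 1 and 2 members and in males 5, 3, 2, 0, 5, 1 and 1, and limma-voom and DESeq2 called 0. In ethanol metabolism Aldh, which oxidizes acetaldehyde, had medians of 540 and 501 CPM in high and low females (0.20, SE 0.07) and 702 and 625 CPM in males (0.26, SE 0.09), with edgeR adjusted p of 0.300 and 0.202. GstD2, a glutathione transferase, had a log2 fold change of 0.88 (SE 0.30) in females and 0.94 (SE 0.29) in males (edgeR adjusted p of 0.246 and 0.143). Hsp70Bb, a heat-inducible chaperone, had 1.51 (SE 0.60) in females (edgeR adjusted p = 0.433), with medians of 1.13 and 1.24 CPM. In all, 286 of 293 listed entries matched a gene model, and 1 of 251 distinct genes tested was called in females (0.398%) and 7 of 258 in males (2.71%), against 0.651% and 0.621% of all transcripts. The 7 in males were Diedel, Tep1, BomS6 and 4 yolk and eggshell genes, and without DGRP_176 and DGRP_40 no yolk or eggshell gene that could be tested was called.

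**Figure D5:**
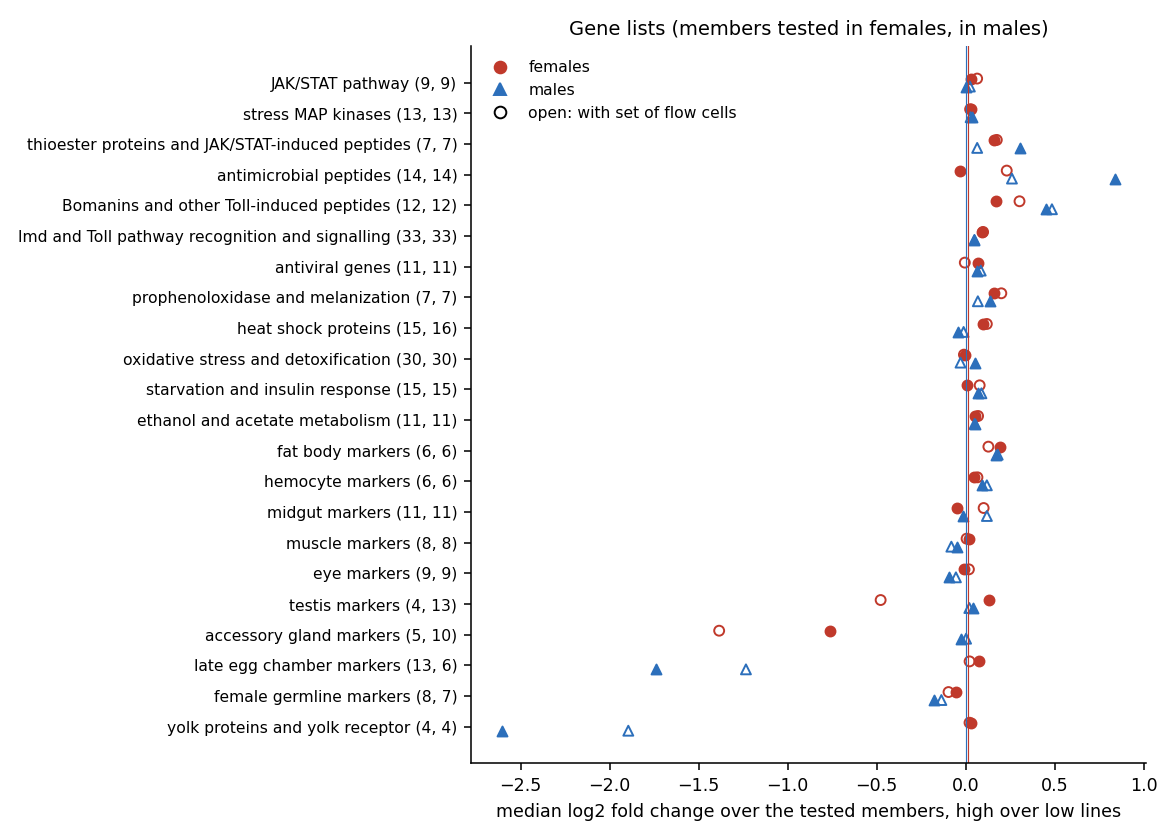
Median log2 fold change of high over low lines (edgeR) over the tested members of each gene list, in females and males, without (filled) and with (open) the set of flow cells in the fit, and thin lines at the medians of all transcripts tested. Most medians lie close to these lines, and those below -1 are lists of genes typical of the other sex.

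Markers of tissues were used to see whether the makeup of the flies moved with the sets. In females the summed level of 7 fat body markers was between 5663 and 16185 CPM in high lines (median 10756) and between 7843 and 14578 CPM in low lines (median 9939), and in males the medians were 11400 and 9931 CPM. Of the 6 that could be tested edgeR, limma-voom and DESeq2 called 0, with 1 higher at an unadjusted p below 0.05 in each sex (Mtp), and the part of fat body mass in the Turandot level was not tested. The summed levels of hemocyte, midgut, muscle and eye markers overlapped over most of their range, with 0 called by edgeR in either sex. Limma-voom and DESeq2 also called 0. Over all transcripts edgeR called 0.651% in females and 0.621% in males, so 0 calls in marker lists of this size, fat body included, is near the background. These counts are no result about the makeup of the flies. At an unadjusted p below 0.05 there were NimC1 in both sexes, Mal-A1 in both sexes, LysB in males, and the eye genes Rh6 and norpA in males. The hemocyte receptor gene NimC1 had log2 fold changes of 0.44 (SE 0.19) in females and 0.45 (SE 0.15) in males (edgeR adjusted p of 0.502 and 0.207). Over the 6 hemocyte markers tested the median was 0.05 in females and 0.09 in males. The summed hemocyte level had medians of 480 and 490 CPM in high and low females, and of 457 and 432 CPM in males. In males the yolk genes Yp2 and Yp3 and the eggshell genes Cp36 and Cp38 were called lower in high lines, with log2 fold changes of -2.004 to -4.27. Yolk and eggshell genes are known from female tissues, and in low males their medians were 1.29, 11.7, 0.129 and 0.0524 CPM. Without DGRP_176 and DGRP_40, which hold the male libraries with most yolk RNA, 0 of 4 yolk genes and 0 of 2 eggshell genes that could be tested were called (edgeR), the median log2 fold change of the yolk genes was 0.46 in place of -2.61, and 96 transcripts in all were called in males. Without DGRP_374 and DGRP_555 93 were called in females.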

How the data were processed

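Ribosomal-depleted RNA of whole flies was sequenced by the authors as directional single-read libraries. Per the labels and the study's methods, adapters were removed with cutadapt 1.6, reads of ribosomal, microbial and repeat sequence were removed with BWA 0.7.10, reads were aligned with STAR 2.4.0e to BDGP5, and HTSeq counted reads per gene model (FlyBase 5.57 and regions without annotation). The deposited values are these raw counts, and reads that matched several places were not counted, so genes with near-identical copies are uncertain. Gene models that the authors did not pass in their own quality column, 162 ribosomal and 35 mitochondrial models were left out, and the totals are of the 39823 models that passed.

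Counts were summed over the 2 replicates of a line and sex, scaled by TMM and tested in edgeR 4.0.16 (R 4.3.3, quasi-likelihood) wherever the average library had 5 or more counts of a transcript, with Benjamini-Hochberg adjustment over all of them. The 4 score genes were in each fit but not in the counts of calls. The labels tell replicates apart but not whether they came from separate cultures, so p-values measure the spread between lines. Named genes were the Turandot family, in each sex the 8 annotated calls with the smallest p in each direction among those with a mean of at least 50 counts, the calls shared by both sexes, up to 4 members of each list with the smallest p, and the 8 annotated genes with the highest correlation with the score. Shared calls with a lower mean count (among them Diedel and Desat2) were named after their values were seen. The members, lists and tests were chosen with earlier results of these data known. Alternatives were limma-voom (limma 3.58.1), DESeq2 1.42.0, other scaling and filters, other choices of lines, flow cell terms and leaving out a replicate. Those that the closing section gives as added were chosen after seeing the data. The edgeR steps were tested on simulated data.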

Additional observations from a re-analysis of the deposited data

How the results depend on the processing

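The number of transcripts called, 96 in females and 118 in males, depended on the processing, and the cause was not tested. It was 1 and 1 for the 12 highest against the 12 lowest lines, 167 and 219 with DESeq2, 4 and 5 with limma-voom, 7 and 9 with a minimum of 50 counts, 377 and 264 with no filter, and 21 and 26 with the set of flow cells in the fit. It was 23 and 17 in lines with females on flow cells A and B and 17 and 25 in the other lines. Lines chosen on replicate 1 and tested on replicate 2 gave 193 in males, and lines chosen on replicate 2 and tested on replicate 1 gave 50 and 54. Single libraries gave 4 and 8 with no replicate block, 4 and 8 with a replicate block, and 3 and 11 with the flow cell in the fit. The labels give no meaning to a replicate number, so the number was not taken as a pairing. In males most pairs of lines deviated together between replicates (1053 of 1128 with a correlation over 0.1, mean 0.41). In females 568 of 1128 pairs did (mean 0.13). The replicate number moved with the flow cell. Of 96 male libraries each, 76 of replicate 1 were on A and 77 of replicate 2 on B, and 46 and 46 in females. Without a replicate the count was between 67 and 82 in females and between 51 and 120 in males. Of the alternatives added after seeing the data, lines chosen on the other sex with the set of flow cells in the fit gave 16 and 16, lines with both libraries of that sex on A and B 23 and 72, the flow cells of the male libraries in the fit 69 in males, and the slope on the score over 96 lines with the set of flow cells 43 and 73. TotM in females, in lines chosen on males, was 1.95 and did not pass with the set of flow cells. Transcripts whose difference depended on sex numbered 0 in edgeR, 5 without replicate 1, and 0 without replicate 2, with DESeq2 size factors, limma-voom, total scaling, a minimum of 50 counts and no filter. Log2 fold changes that turned positive were those of snoRNA:Psi28S-1175b in females in the other lines (0.30), of Yp2 and Yp3 in males in the other lines (0.64 and 0.22) and without the 2 lines with most RNA of the other sex (0.71 and 0.21), of CG15414 in males in single libraries with the flow cell in the fit (0.16, from -2.44), and of Cyp4c3 in males (-1.95) for the 12 highest against the 12 lowest lines (0.18) and for TotM alone (0.046). Diedel had a median of 3 and 2 counts over both libraries of a low line, so depth limits its fold changes.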
